A study of Mus musculus with 178 samples.

Results

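The genes described here encode the enzymes and regulators with which a cell makes cholesterol and fatty acids. They are 30 of the 24421 genes counted, taken by their gene symbols, and each of the 30 had a row in all 9 count tables and passed the filter on low counts in every comparison. By role, 8 carry acetyl units to squalene through mevalonate, 10 turn squalene into cholesterol, 4 control or transport sterols, and 8 make, elongate or desaturate fatty acids.

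Cells build cholesterol from acetyl-CoA by way of mevalonate, the isoprenoids and squalene, and they use it chiefly for membranes. The genes of this route share a sensor in the endoplasmic reticulum: when sterols are scarce, SREBP transcription factors are cut from their membrane anchors and activate the enzymes, and when sterols are plentiful, INSIG proteins hold the precursors back and oxidised sterols activate the LXR receptors, which induce export. SREBP2 mainly serves the cholesterol genes and SREBP1 mainly the fatty acid genes, and dividing cells need both products for new membrane.

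The libraries came from mouse tibialis anterior muscle, either undamaged (day 0) or taken between day 1 and day 14 after notexin, a myotoxin from snake venom, had been injected; the toxin destroys myofibres and the muscle then regenerates. Muscle was dissociated and sorted. Fibro/adipogenic progenitors (FAPs), the PDGFRα-positive connective tissue cells, were sorted as CD45-/CD31-/EGFP+. Inflammatory cells were CD45+/CD31-, endothelial cells (EC) CD45-/CD31+ and myogenic progenitors (MP) CD45-/CD31-/a7+/VCAM+. These 4 gates used mice that carry an EGFP reporter for PDGFRa, either wild type on the B6 background or CCR2KO, a knockout of the chemokine receptor that brings monocytes into damaged tissue. Pericytes were gated as CD45-/CD31-/Sca1-/NG2+ from wild-type B6 mice with an NG2 DsRed reporter, and total tissue came from wild-type B6 mice. The labels give no age, and the knockout is not described as limited to a cell type, so every cell of a CCR2KO mouse is taken to carry it. Knockout libraries exist for FAPs (18), EC (14) and MP (9). Wild-type libraries number 32 for FAPs, 31 for EC, 27 for inflammatory cells, 16 for MP, 10 for pericytes and 21 for total muscle. A group of 1 population, genotype and day holds 1 to 6 libraries. Separate animals are not identified in the labels; each p-value therefore reflects variation among libraries, which may be technical.

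Gene counts per library ran from 1236809 to 37740952, with a median of 13736699.5. Levels are counts per 1000000 gene counts (CPM). They are not divided by transcript length, so each gene is compared only with itself. Ccr2 itself had a median of 0 CPM in the knockout FAPs (13 of 18 libraries with 0 counts) and 0 CPM in the knockout MP, and 0.0831 CPM in the knockout EC, against 0.938, 4.59 and 5.47 CPM in the wild type. In 4 knockout libraries, 1 of FAPs, 1 of EC and 2 of MP, it reached at least 1 CPM. Defining markers were high in their own gates: in undamaged wild-type libraries the 5 FAP markers summed to 49589 to 58579.7 CPM in FAPs, the 6 endothelial markers to 8475 to 10720.0 in EC, the 6 leukocyte markers to 4756 to 15293 in inflammatory cells, the 5 myogenic markers to 1916 to 2135 in MP and the 5 pericyte and smooth muscle markers to 30432 to 37989.9 in pericytes. Overall profiles of 5 wild-type libraries lay nearest to another population: EC day 1 library 3 and day 3 library 5 to FAPs, MP day 2 library 1 and day 3 library 1 to inflammatory cells, and MP day 10 library 1 to pericytes. The descriptions of 14 libraries name another day than their titles, and the titles were followed. In what follows, a change was called at an adjusted p under 0.05 in edgeR's quasi-likelihood test over all genes, and fold changes are on the log2 scale with their standard errors. Shares of all genes called refer to this test alone. Counts of members at an unadjusted p under 0.05 or by DESeq2 cannot be read against these shares.

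RefSeq promoters were available for 23 of the 30 genes (GRCm38.p6; 250 bases before to 50 after the start). Missing from that table were Sqle, Fdps, Fdft1, Scd1, Scd2, Stard4 and Fads1. SREBPs act beside NF-Y, which binds CCAAT, so 3 motifs were searched on both strands: CCAAT, the classical sterol regulatory element of 10 bases and the E-box CACGTG. The NF-Y box, read as CCAAT or ATTGG, was present in 14 of 15 mevalonate and sterol promoters (93.3%), in 1 of 5 fatty acid promoters (20%) and in 37.5% of all 27025 promoters of the table. The CACGTG box was present in 4 of 23 (17.4%, against 6.86%). No member held the sterol regulatory element (0.226% of all promoters), which says only that its letters are not in these windows. The 100 bases before the start are shown for 6 genes, because these genes rose together at day 1 in FAPs except Sc5d, which is shown as a sterol gene that was not called. Capitals mark CCAAT or its reverse complement ATTGG; all runs are 5′ to 3′ on the gene's strand. They lie at chr13:119690251-119690350 on the plus strand (Hmgcs1), chr5:114444169-114444268 on the plus strand (Mvk), chr8:122443423-122443522 on the minus strand (Mvd), chrX:72918421-72918520 on the plus strand (Nsdhl), chr9:42264301-42264400 on the minus strand (Sc5d) and chr11:120824548-120824647 on the minus strand (Fasn).
Hmgcs1: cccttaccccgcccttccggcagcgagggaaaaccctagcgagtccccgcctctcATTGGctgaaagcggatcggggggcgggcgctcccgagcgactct
Mvk: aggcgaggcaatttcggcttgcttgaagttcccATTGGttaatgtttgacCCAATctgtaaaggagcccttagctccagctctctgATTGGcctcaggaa
Mvd: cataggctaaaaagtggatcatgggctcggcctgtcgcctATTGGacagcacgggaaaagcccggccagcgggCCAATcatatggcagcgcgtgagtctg
Nsdhl: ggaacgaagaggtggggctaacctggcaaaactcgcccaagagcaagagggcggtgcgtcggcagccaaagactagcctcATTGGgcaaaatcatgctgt
Sc5d: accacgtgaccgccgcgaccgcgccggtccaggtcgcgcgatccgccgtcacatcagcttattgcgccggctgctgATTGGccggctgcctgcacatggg
Fasn: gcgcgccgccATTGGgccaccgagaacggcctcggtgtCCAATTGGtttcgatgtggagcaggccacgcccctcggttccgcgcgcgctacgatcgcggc
Mvk and Fasn hold 3 such boxes in these 100 bases (a pair of them overlap in Fasn), Mvd 2, and Hmgcs1, Nsdhl and Sc5d 1. The windows of Acaca and Acly, which also rose at day 1 in FAPs, hold 0 and are not shown. Of the genes not called there, Pmvk holds 0 and Ebp and Srebf1 hold 1 each. The matches are a description of sequence and not measured binding.

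In FAPs of wild-type mice most of the cholesterol and fatty acid synthesis genes rose at day 1 after notexin. Of the 30 genes, 19 rose and none fell, where 26.6% of all genes were called and 12.7% were called higher. The median change of the 30 genes was 1.37 against -0.08 for all genes tested. In 24 of the 30 genes every day 1 library lay above every undamaged library (21.3% of all genes), and Scd1 was the single gene with every day 1 library below (17.5% of all genes). By role, 6 of 8 mevalonate genes, 7 of 10 sterol genes, 0 of 4 control genes and 6 of 8 fatty acid genes were called. Without undamaged library 2 the call remained for 11 genes rather than 19.

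Among the mevalonate genes, Hmgcs1, which makes HMG-CoA, stood at 73.7, 62.7 and 103 CPM in the 3 undamaged FAP libraries and at 291, 361, 227 and 130.5 CPM in the 4 day 1 libraries. The groups did not overlap, and the change was 1.60 ± 0.51 (adjusted p = 0.0200). Acat2, the cytosolic thiolase that opens the route, went from 10.6, 6.03 and 8.16 CPM to 53.3, 49.5, 35.9 and 66.8 CPM, a rise of 2.59 ± 0.42 (adjusted p = 5.54e-05). Fdps, which makes farnesyl diphosphate, went from 52.5, 16.2 and 25.5 CPM to 132, 217, 125 and 229.9 CPM, a rise of 2.43 ± 0.53 (adjusted p = 0.00128). Both genes were higher in every day 1 library. Fdft1, the squalene synthase, rose by 2.29 ± 0.48, Mvd, the mevalonate diphosphate decarboxylase, by 2.12 ± 0.62 and Mvk, the mevalonate kinase, by 1.95 ± 0.66. The isomerase Idi1 (1.86 ± 0.82) and the kinase Pmvk (0.94 ± 0.37) were not called.

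Of the sterol genes, Lss, the cyclase that makes lanosterol, had the largest change of the 30. Its levels were 6.02, 8.19 and 8.54 CPM undamaged and 44.2, 55.3, 44.8 and 68.9 CPM at day 1, a rise of 2.76 ± 0.45 (adjusted p = 4.76e-05). Sqle, the squalene epoxidase, stood at 30.5, 20.1 and 37.8 CPM undamaged and at 130.2, 138, 137 and 140.0 CPM at day 1, a rise of 2.16 ± 0.46 (adjusted p = 9.15e-04). The day 1 libraries of both genes lay close together and wholly above the undamaged ones. Cyp51, the lanosterol demethylase, rose by 2.22 ± 0.40, Dhcr7, the last reductase of one branch, by 2.04 ± 0.52, and the C4 demethylation genes Hsd17b7, Nsdhl and Msmo1 by 1.43 ± 0.34, 1.39 ± 0.44 and 1.35 ± 0.41. Sc5d (0.74 ± 0.35), Tm7sf2 (0.88 ± 0.64) and Ebp (0.39 ± 0.41) were not called.

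Of the 8 fatty acid genes, 6 rose. Fasn, the fatty acid synthase, went from 139, 120.3 and 141 CPM to 339, 554, 559 and 780.1 CPM, a rise of 2.02 ± 0.52 (adjusted p = 0.00454) with no overlap between the groups. The elongase Elovl6 rose by 1.76 ± 0.55, the delta-5 desaturase Fads1 by 1.26 ± 0.42, acetyl-CoA carboxylase Acaca by 1.14 ± 0.39, the delta-9 desaturase Scd2 by 0.76 ± 0.27 and the citrate lyase Acly by 0.67 ± 0.23. Fads2 (1.35 ± 0.54) was not called, although every day 1 library was above every undamaged one. Scd1, the other delta-9 desaturase, measured 289, 246 and 302 CPM undamaged and 239, 194, 225 and 219.8 CPM at day 1 and was not called (-0.39 ± 0.28). The control genes were not called either: Srebf1 0.36 ± 0.40, Srebf2 0.64 ± 0.48, the sterol-sensing retention protein gene Insig1 0.56 ± 0.30 and the sterol carrier gene Stard4 1.20 ± 0.50.

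The rise was short. Between day 1 and day 3, a comparison added after the data had been seen, 21 of the 30 genes fell in FAPs and none rose, where 27.1% of all genes were called and 11.3% were called lower. The median change was -1.55 against 0.12 for all genes. Hsd17b7 fell by 3.16 ± 0.29, Idi1 by 2.99 ± 0.67 and Sqle by 2.53 ± 0.36. Sqle stayed high at day 2, with 79.5 to 124 (median 104) CPM in 6 libraries, and measured 7.01 to 29.8 (median 23.4) CPM in the 6 day 3 libraries, which overlapped the undamaged range. The 18 mevalonate and sterol genes summed to 440.3 ± 89.6 CPM (SD, n = 3) undamaged, 1537 ± 211 (n = 4) at day 1, 1328 ± 278 (n = 6) at day 2, 416 ± 102 (n = 6) at day 3 and 204 ± 25.7 (n = 3) at day 6. The highest daily mean fell on day 1 for 21 of the 30 genes and on day 2 for 8, with Scd1 highest at day 14.

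Day 3 levels in FAPs differed from undamaged ones in 6 genes, a share close to that of all genes (19.2%). Hsd17b7 (-1.73 ± 0.30), Sc5d, the lathosterol oxidase (-1.23 ± 0.31), Insig1 (-1.02 ± 0.26) and Acly (-0.73 ± 0.21) were lower, and Pmvk (1.03 ± 0.35) and Acat2 (1.06 ± 0.38) were higher. Insig1 went from 52.2, 54.4 and 86.1 CPM to 21.4 to 36.6 (median 30.6) CPM, with no overlap. Without undamaged library 3 this count was 1 rather than 6. From day 3 to days 10 and 14, Hsd17b7 (1.28 ± 0.27) and Insig1 (0.99 ± 0.23) rose again, a share of members no higher than that of all genes (12.3%).

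**Figure D1:**
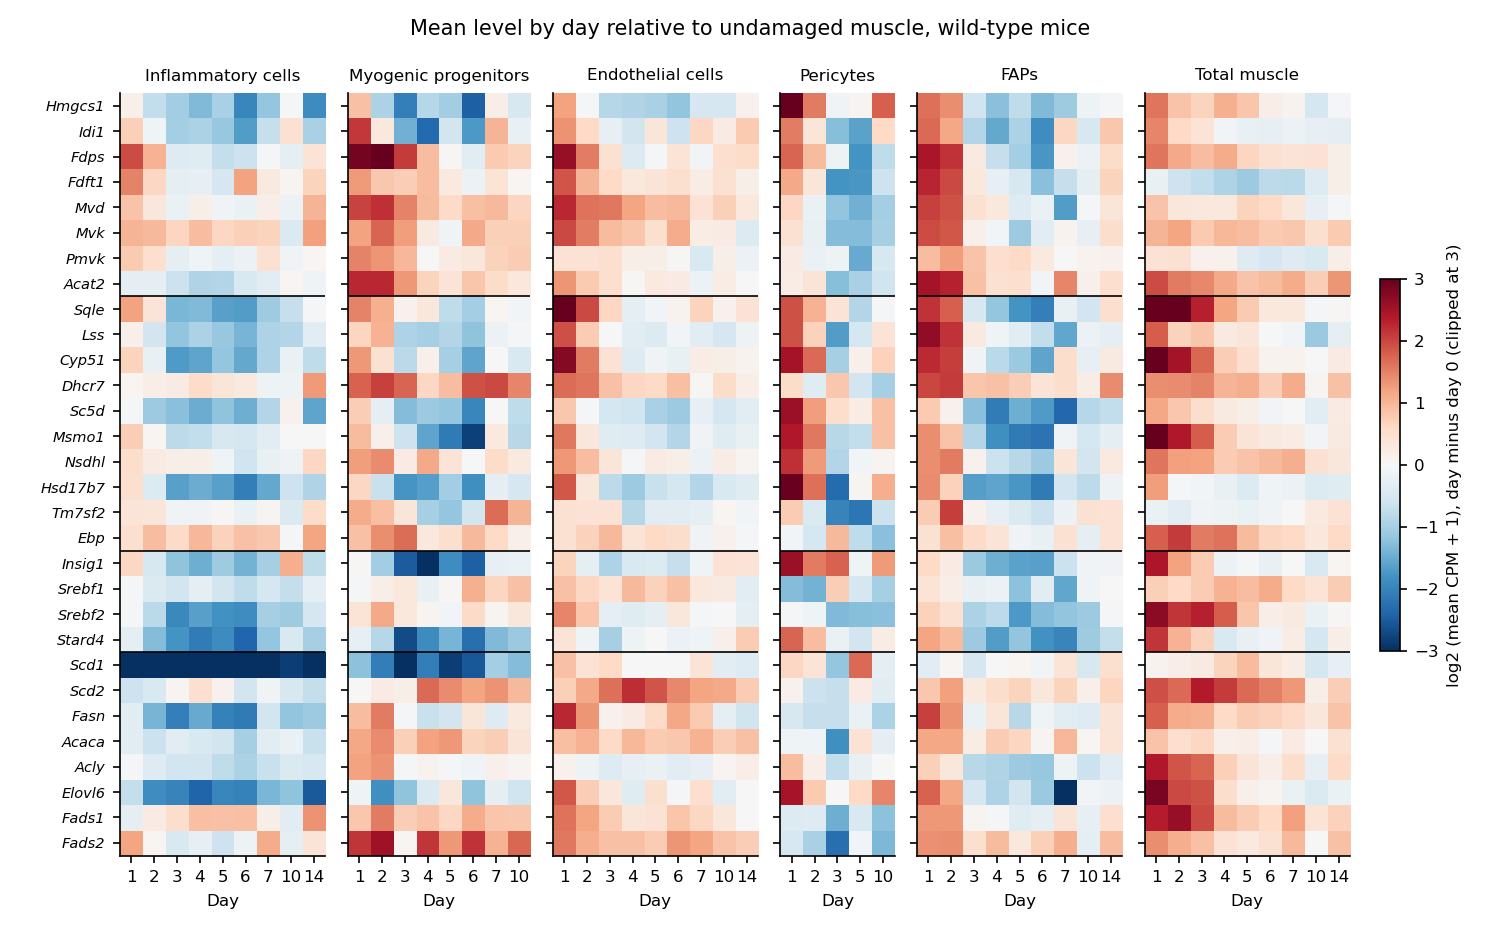
Mean level of each of the 30 genes by day relative to undamaged muscle, as the difference of log2(mean CPM + 1), in the 6 wild-type sample types; red is above and blue below day 0, colours are clipped at 3, and lines separate mevalonate, sterol, control and fatty acid genes. FAPs and EC are red through most of the sterol route at day 1 and mostly pale or blue from day 3, and Scd1 is dark blue throughout in inflammatory cells.

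**Figure D2:**
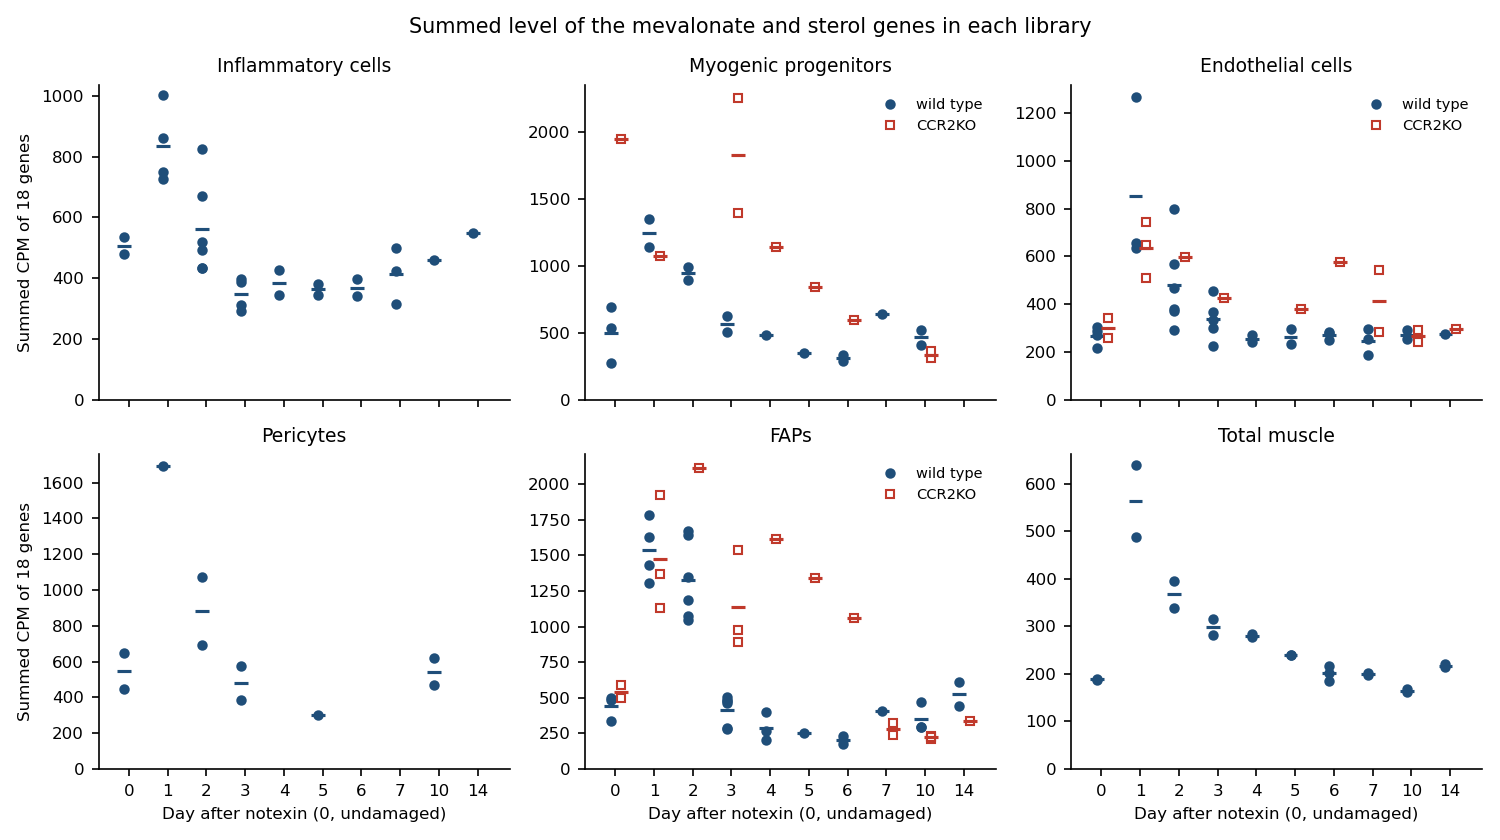
Summed CPM of the 18 mevalonate and sterol genes in each library by day, in 6 panels; points are libraries, bars are means, filled circles are wild type and open squares CCR2KO. The 4 wild-type FAP libraries of day 1 sit above all undamaged ones, and knockout FAPs stay above wild-type FAPs from day 3 to day 6.

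Proliferation markers rose with the route at day 1 in FAPs and were still above their undamaged range at day 3. The list of 6 (Mki67, Top2a, Ccnb1, Birc5, Cdk1 and Mcm5) rose in 6 of 6 genes at day 1, and its summed level was 29.2 to 32.1 CPM undamaged, 800.0 to 1516 at day 1, 484 to 1242 at day 2 and 150.2 to 549 at day 3. Leukocyte markers summed to 6.12 to 14.9 CPM undamaged and 7.66 to 25.4 at day 1, with none of 6 called, and to 131 to 678 at day 3, with 6 of 6 higher than undamaged. Endothelial markers fell in 5 of 6 genes at day 1, with sums of 36.3 to 53.4 CPM undamaged and 3.33 to 12 at day 1. FAP markers fell in 3 of 5, with sums of 49589 to 58579.7 CPM undamaged and 20591 to 30499 at day 1. Leukocyte and myogenic markers rose between day 1 and day 3, in 6 of 6 and 5 of 5 genes, the latter with sums of 4.01 to 5.88 CPM at day 1 and 23.3 to 56.9 at day 3. The part of these in the changes of the 30 genes was not tested.

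Neighbouring pathways in FAPs did not move as a block at day 1. Of 16 other synthesis genes, 4 rose and 2 fell, among them Tmem97, a sterol-regulated membrane protein (2.38 ± 0.50), and Aacs, which activates acetoacetate for synthesis (1.96 ± 0.42). Of 6 genes for SREBP processing only Insig2 was called (-1.17 ± 0.43). Of 11 sterol export and LXR genes, 2 rose and 3 fell, among them Mylip, a receptor-degrading ligase (-1.99 ± 0.24), Abca1, a cholesterol exporter (-1.79 ± 0.49), and Lpcat3, a phospholipid remodelling enzyme (1.75 ± 0.38). Of this export list, 6 of 11 genes rose and none fell between day 1 and day 3, where 27.1% of all genes were called, with Abcg1, another exporter, up by 3.71 ± 0.35, Apoe, the lipid carrier, by 3.19 ± 0.57 and Mylip by 2.17 ± 0.22. The leukocyte markers rose in 6 of 6 genes between the same days, and their part in the export genes was not tested. None of 8 tested fatty acid oxidation genes was called at day 1 by edgeR.

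In EC at day 1, 10 of the 30 genes rose and none fell, where 5.43% of all genes were called and 3.24% called higher, and the median change was 1.63 against -0.01. All 10 were mevalonate (4) or sterol genes (6), and none of the 8 fatty acid genes was called. Among those, Fasn (2.52 ± 0.87), Elovl6 (2.19 ± 0.72), Fads2 (1.85 ± 0.76) and Fads1 (1.77 ± 0.57) had changes within the range of the called genes, and a difference between the routes was not tested. Sqle went from 4.25, 6.18, 4.36 and 5.22 CPM in the 4 undamaged libraries to 47.9, 48.2 and 107 CPM in the 3 of day 1, a rise of 3.83 ± 0.66 (adjusted p = 0.00153). Cyp51 went from 8.49, 19.1, 13.6 and 13.1 CPM to 59.6, 75.7 and 157 CPM, a rise of 2.95 ± 0.57 (adjusted p = 0.00344). Every day 1 library was above every undamaged one in both genes, as in 17 of the 30 (9.54% of all genes), and day 1 library 3 was the highest.

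Much of the call in EC rested on that library. Its summed level of the 18 mevalonate and sterol genes was 1266 CPM against 654 and 636 in the other day 1 libraries and 268 ± 37.6 (SD, n = 4) undamaged, and its 5 FAP markers gave the highest sum of the group, in a range of 134 to 13422 CPM at day 1 and 316 to 12502 undamaged. Without it only 2 of the 10 genes were called, Sqle (3.32) and Cyp51 (2.40), and without every library nearest to another population, 4 were. From day 1 to day 3, 11 genes fell and none rose (5.49% of all genes called, 2.25% lower), with Sqle at -2.90 ± 0.58, Hsd17b7 at -2.82 ± 0.47 and Hmgcs1 at -2.03 ± 0.41. Hmgcs1 had 132, 143 and 136 CPM at day 1 and 21.8, 38.4, 18.8, 6.12 and 74.6 at day 3, with no overlap. Against undamaged EC, day 3 differed in 3 genes (6.54% of all genes): Mvd (2.05 ± 0.47) and Scd2 (1.92 ± 0.38) were higher and Insig1 (-0.80 ± 0.24) lower. This count was 1 without undamaged library 3 and 6 without day 3 library 5. No gene was called between day 3 and days 10 and 14 by edgeR (0.0961% of all genes), 6 had an unadjusted p under 0.05, and DESeq2 called 2.

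In inflammatory cells, 6 of the 30 genes rose at day 1 and Scd1 fell, where 19.1% of all genes were called and 8.0% called higher, with a median change of 0.79 against -0.12. Fdps went from 24.9 and 31.4 CPM in the 2 undamaged libraries to 110.2, 118, 69.1 and 150.2 CPM in the 4 of day 1, a rise of 2.47 ± 0.54 (adjusted p = 0.00323). Sqle went from 28.8 and 26.4 CPM to 56.4, 53.0, 65.7 and 85.7 CPM, a rise of 1.68 ± 0.56 (adjusted p = 0.0392). Neither gene overlapped between the groups. Fdft1 (1.99 ± 0.63), Mvk (1.57 ± 0.54), Pmvk (1.29 ± 0.46) and Msmo1 (1.17 ± 0.33) rose too. Proliferation markers fell in 4 of 6 genes in the same comparison, with sums of 281 to 386 CPM undamaged and 68.8 to 118 at day 1, and their part was not tested. The inflammatory gate was not limited to 1 leukocyte type, so a change of cell types and a change within cells cannot be told apart. The count of 7 was 4 without undamaged library 1, 2 without undamaged library 2, and 3 without day 1 library 2 or 4.

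By day 3 some genes had fallen below the undamaged level in inflammatory cells. From day 1 to day 3, 15 genes fell and none rose (10.2% of all genes called, 4.93% lower; median -1.31 against -0.05). Sqle fell to 9.23, 5.19, 15.0 and 10.7 CPM and Cyp51 went from 96.6 and 67.1 CPM undamaged to 28.3, 18.7, 29.0 and 21.6 CPM at day 3. All 4 day 3 libraries of both genes lay below the 2 undamaged ones. Against undamaged cells, 7 genes were lower at day 3 and none higher (17.4% of all genes): Scd1, Elovl6 (-2.04 ± 0.47), Fasn (-1.68 ± 0.48), Stard4 (-1.60 ± 0.40), Srebf2, the gene of SREBP2 (-1.56 ± 0.44), Hsd17b7 (-1.52 ± 0.47) and Cyp51 (-1.39 ± 0.42). Without undamaged library 2 this count was 2 and without day 3 library 2 it was 3. In the same comparison 7 of 11 export and LXR genes rose and none fell, with a median of 2.23. One of them was Nr1h3, the gene of LXRα (5.02 ± 0.58).

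In MP, 6 genes rose at day 1 and none fell (16.1% of all genes called, 9.61% higher; median 1.00 against -0.24). Fdps went from 16.5, 34.1 and 16.8 CPM in the 3 undamaged libraries to 215 and 126 CPM in the 2 of day 1, a rise of 2.88 ± 0.57 (adjusted p = 0.00636). Acat2 (2.34 ± 0.56), Fads2, the delta-6 desaturase (2.15 ± 0.63), Mvd (2.09 ± 0.47), Dhcr7 (1.84 ± 0.50) and Acly (1.11 ± 0.34) rose too. Sqle had 35.6, 49.8 and 13.2 CPM undamaged and 114 and 73.0 at day 1, without overlap, and was not called (1.45 ± 0.52). In 20 genes the day 1 libraries lay above all undamaged ones (24.3% of all genes). The count of 6 was 1 without undamaged library 1 or 2 and 2 without undamaged library 3 or day 1 library 2. Without the libraries nearest to another population it was 12. Proliferation markers rose in 6 of 6 genes, with sums of 36.5 to 82.4 CPM undamaged and 1266 to 1662 at day 1, and their part was not tested.

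At day 3, 6 genes were above and 5 below the undamaged level in MP. Fdps (2.36 ± 0.56), Dhcr7 (2.12 ± 0.50), Ebp, the sterol isomerase (1.94 ± 0.44), Mvd (1.83 ± 0.47), Acat2 (1.63 ± 0.56) and Mvk (1.52 ± 0.53) were above it. Scd1 (-2.90 ± 0.60), Stard4 (-2.80 ± 0.83), Insig1 (-2.33 ± 0.61), Hmgcs1 (-1.88 ± 0.60) and Hsd17b7 (-1.64 ± 0.52) were below it. The share of members called was close to that of all genes (32.1%). Hmgcs1 measured 130.3, 134 and 33.4 CPM undamaged and 31.8 and 14.3 at day 3, and Stard4 measured 32.5, 41.5 and 8.15 CPM and 1.72 and 5.08 CPM, both without overlap. Leukocyte markers rose in 6 of 6 genes in the same comparison, with sums of 43.9 to 58.1 CPM undamaged and 1676 to 7469 at day 3, and day 3 library 1 had the profile nearest to inflammatory cells. Without the libraries nearest to another population 9 genes were called instead of 11, and leaving out 1 library at a time gave 3 to 10. The counts were 5 without undamaged library 1, 6 without undamaged library 2, 5 without day 3 library 1 and 3 without day 3 library 2, and 2 with a term for a code, R52, that some library descriptions carry. From day 1 to day 3 no gene was called by edgeR (0.311% of all genes), 12 had an unadjusted p under 0.05, and DESeq2 called 7; only Ebp was called between day 3 and day 10 (-1.76 ± 0.49; 11.2% of all genes).

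Pericytes had a single day 1 library, and edgeR called no member between any of their days (0.00661% of all genes at day 1 and 0.0397% at day 3 against undamaged). At an unadjusted p under 0.05 the count was 1 at day 1, 1 at day 3 against undamaged, 5 at day 3 against day 1 (0.0% of all genes called) and 1 at day 10 against day 3 (0.0727%). DESeq2 called 0, 0, 1 and 1. The 18 mevalonate and sterol genes summed to 547 ± 142 CPM (SD, n = 2) undamaged, 1690.2 in the library of day 1, 882 ± 269 (n = 2) at day 2 and 481 ± 131 (n = 2) at day 3. Hmgcs1 measured 7.03 and 62.5 CPM undamaged and 309 at day 1. The highest daily mean fell on day 1 for 19 of the 30 genes. The day 3 libraries differed widely, with Mvd at 0 CPM in library 1 and 15.1 in library 2, and Ebp at 227 and 39.5 CPM. Without day 3 library 2, members were called in the comparisons with day 3. That leaves a single day 3 library, so these calls are not read as a pericyte response.

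In total muscle, where most tested genes changed, the route rose at day 1 as well. Of the 30 genes, 22 rose and 3 fell, where 67.1% of all genes were called and 34.9% called higher (median 1.05 against 0.05), so the share called is read against a high background. Sqle went from 1.43 and 1.26 CPM in the 2 undamaged libraries to 53.1 and 35.1 CPM in the 2 of day 1, a rise of 4.25 ± 0.30 (adjusted p = 1.89e-09). Cyp51 (2.82 ± 0.19), Msmo1 (2.81 ± 0.21), Elovl6 (2.69 ± 0.26), Srebf2 (1.99 ± 0.16) and Insig1 (1.77 ± 0.13) rose as well. In whole tissue, fewer cells of a type and less RNA per cell cannot be told apart.

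The 3 that fell in total muscle were Fdft1, with 46.8 and 46.5 CPM undamaged and 42.7 and 36.8 at day 1 (-1.01 ± 0.16), the sterol reductase Tm7sf2 (-1.01 ± 0.23) and Scd1 (-0.68 ± 0.25). Fdft1 rose at day 1 in sorted FAPs, EC and inflammatory cells. Myofibre markers fell in 5 of 5 genes in the same comparison (sums of 144116 to 145491 CPM undamaged and 72202 to 81512 at day 1), adipocyte markers fell in 5 of 5 and leukocyte markers rose in 6 of 6 (sums of 46.6 to 53.7 and 1409 to 2099 CPM), and fatty acid oxidation genes fell in 8 of 9. Their part was not tested. TMM moved log2 changes by -0.77 against plain CPM in this comparison, and on the CPM scale the sign of Scd1 was the opposite. From day 1 to day 3, 16 genes fell and Scd2 rose (0.55 ± 0.16; 41.9% of all genes called). At day 3, 13 genes were still above and 4 below the undamaged level, a share no higher than that of all genes (65.8%). Sqle was above it by 2.30 ± 0.32, and Pmvk, called lower, had the opposite sign on the CPM scale. Between day 3 and days 10 and 14, 11 more fell and 6 rose, again a share no higher than that of all genes (70.1%).

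**Figure D3:**
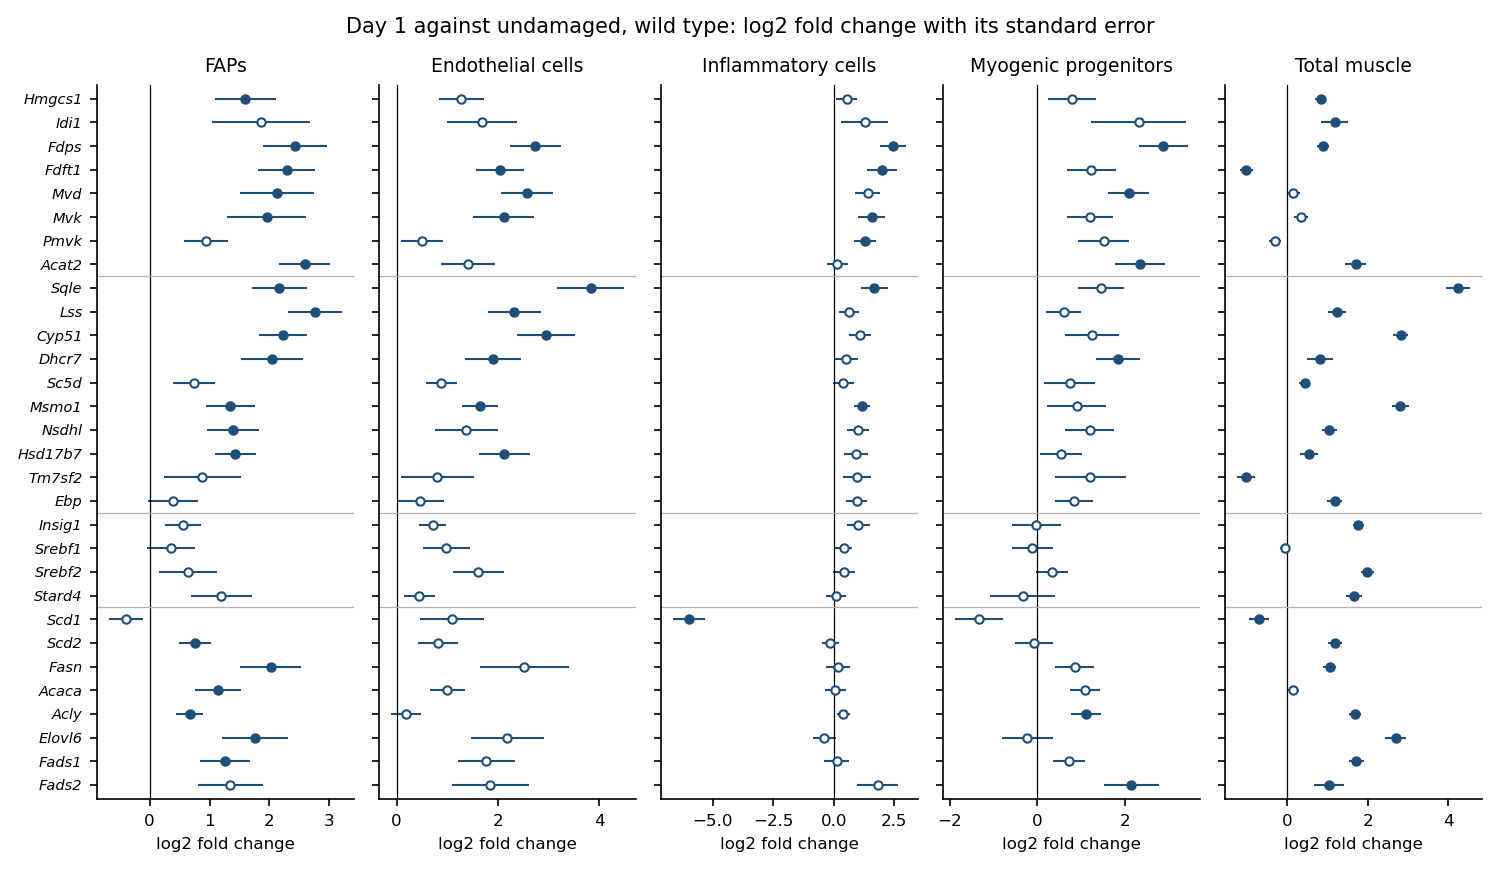
Log2 fold change of each of the 30 genes from undamaged muscle to day 1 in wild-type FAPs, EC, inflammatory cells, MP and total muscle, with bars of 1 standard error; filled points were called (adjusted p under 0.05) and open points were not, and each panel has its own axis. Most points lie right of 0 in every panel, and Scd1 in inflammatory cells lies farthest left, at -6.0.

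The differences between populations in the day 1 response were tested directly, in comparisons added after the data had been seen. The day 1 response of EC differed from that of FAPs in 0 genes by edgeR (0.222% of all genes; 1 gene at an unadjusted p under 0.05, 0 by DESeq2). The response of MP differed in 0 genes (1.38%; 1 at an unadjusted p under 0.05, 1 by DESeq2). These counts do not show that the responses were alike. The day 1 change of inflammatory cells minus that of FAPs was called in 3 genes and negative in each, where 5.5% of all genes were called. Lss (-2.20 ± 0.68) and Acat2 (-2.50 ± 0.73) rose in FAPs and were not called in inflammatory cells, and Scd1 (-5.61 ± 0.86) fell in inflammatory cells and was not called in FAPs. At day 3 the response against undamaged muscle differed between inflammatory cells and FAPs in Scd1 alone (-6.26 ± 0.85; 3.37% of all genes). Between MP and FAPs it differed in 0 genes by edgeR (10.1% of all genes; 5 at an unadjusted p under 0.05, 2 by DESeq2).

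The paired desaturase genes Scd1 and Scd2, whose enzymes both put the first double bond into saturated fatty acids, are set side by side here. A difference between their changes was not tested. In inflammatory cells Scd1 measured 154 and 1530.4 CPM in the 2 undamaged libraries, 7.64, 9.33, 14.0 and 6.76 CPM at day 1 and 1.89 to 4.8 CPM in the 6 libraries of day 2. The undamaged libraries were far apart from each other, and both were above every library of days 1 to 3. The change was -6.0 ± 0.66 (adjusted p = 9.98e-06) at day 1 and -6.84 ± 0.68 (adjusted p = 6.55e-06) at day 3. It then rose by 3.98 ± 0.62 (adjusted p = 0.00136) from day 3 to days 10 and 14, when it stood at 119 and 65.4 CPM. Here too, a change of the leukocyte types in the gate and a change within cells cannot be told apart. In MP, Scd1 fell from 134, 214 and 441 CPM undamaged to 33.7 and 25.8 CPM at day 3 (-2.90 ± 0.60), with no overlap. MP day 3 library 1 had the profile nearest to inflammatory cells. The daily means of wild-type FAPs ran from 197 to 387 CPM, and edgeR did not call the day 3 response of Scd1 different between MP and FAPs. The day 3 change of Scd2 in MP was not called (0.41 ± 0.43).

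Scd2 rose in EC. It went from 119.6, 185, 104 and 66.3 CPM in the 4 undamaged libraries to 322, 290.2, 453, 491 and 325 CPM in the 5 of day 3, a rise of 1.92 ± 0.38 (adjusted p = 0.00473), and to 524 and 581 CPM at day 4. The day 3 libraries were all above the undamaged ones. Scd1 changed in the same direction in EC at day 3 and was not called (0.93 ± 0.57). In inflammatory cells the day 1 change of Scd2 was not called (-0.14 ± 0.35), with 91.2 and 144 CPM undamaged and 48.6, 83.5, 70.2 and 103 CPM at day 1.

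**Figure D4:**
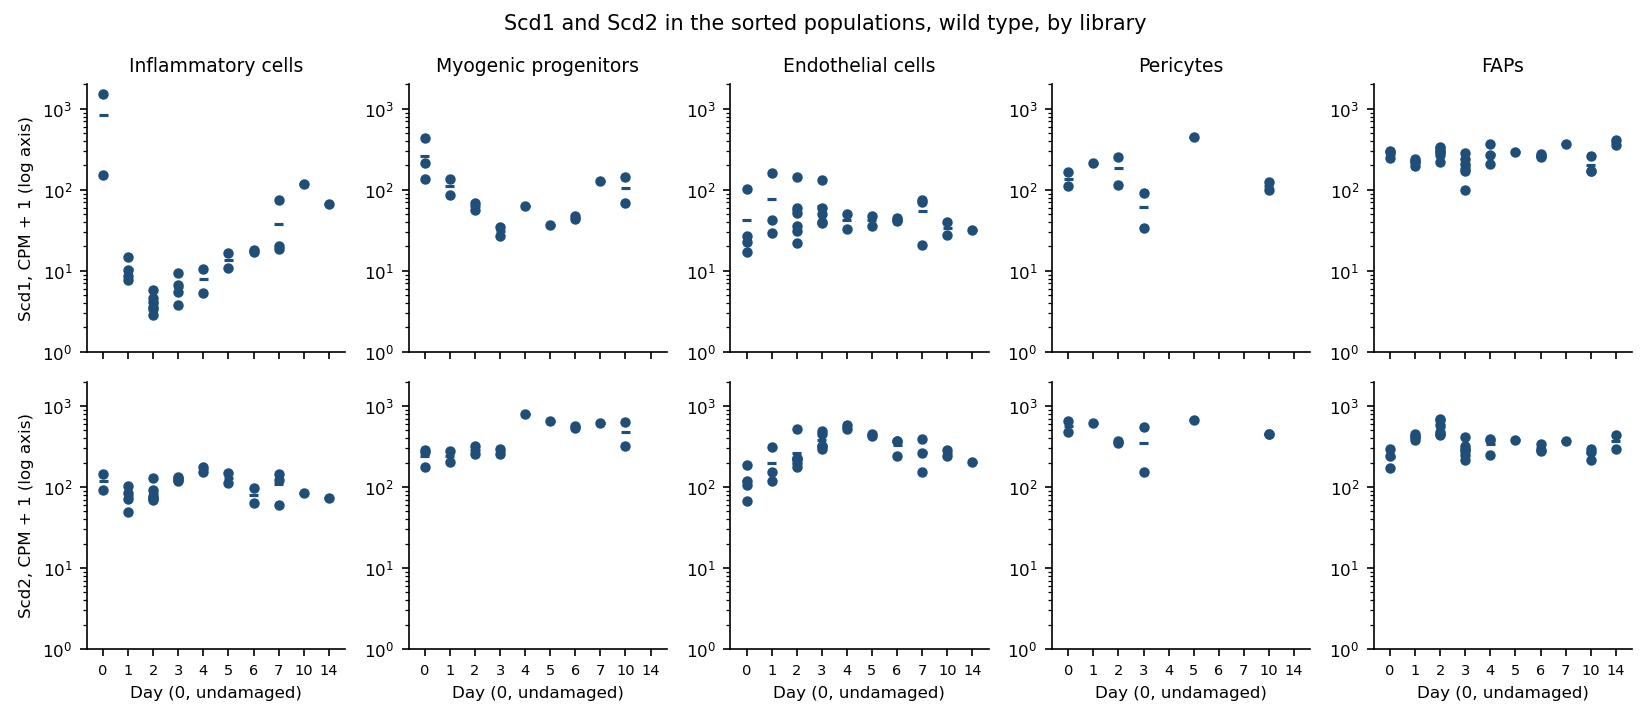
CPM + 1 on a log axis of Scd1 (upper panels) and Scd2 (lower panels) in each wild-type library of the 5 sorted populations by day; points are libraries and bars are means. Scd1 in inflammatory cells is lower from day 1 and higher again at days 10 and 14 than at days 1 to 3, while Scd2 in EC climbs to day 4.

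Averaged over the days that all 5 sorted populations have (0, 1, 2, 3, 5 and 10), FAPs stood above the mean of the other sorted populations in each fatty acid gene. Against the mean of the other 4 populations, 15 of the 30 genes were higher in FAPs and 1 lower (42.1% of all genes called), among them 8 of 8 fatty acid genes, with Scd1 at 2.18 ± 0.19, Fads2 at 1.66 ± 0.25, Elovl6 at 1.43 ± 0.21 and Fads1 at 1.16 ± 0.18. EC were lower in 18 and higher in 2 (37.9% of all genes), lowest in Sqle (-1.71 ± 0.22), Fasn (-1.55 ± 0.25) and Cyp51 (-1.38 ± 0.22). The 2 genes higher in EC were Stard4 (1.5 ± 0.16) and Acly (0.39 ± 0.11). Inflammatory cells were higher in 9, with Insig1 at 1.06 ± 0.15, and lower in 7 (47.7% of all genes), with Fads2 at -2.80 ± 0.42 and Scd1 at -1.92 ± 0.28. MP were higher in 8, with Fasn at 1.39 ± 0.24 and Hsd17b7 at 1.26 ± 0.19, and lower in 7 (36.7% of all genes). Pericytes were higher in 8, with Fads2 at 1.64 ± 0.29 and Pmvk at 1.01 ± 0.16, and lower in 4 (36.5% of all genes). In pericytes and in inflammatory cells the share of members called was close to that of all genes. These 5 contrasts share libraries and are not independent of each other.

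Day 2 holds 6 libraries each of FAPs, EC and inflammatory cells. Same-numbered libraries were taken as paired, but the values here come from a fit that leaves the pairing out. FAPs were above EC in 25 of the 30 genes and below in none, where 45.6% of all genes were called and 21.4% called higher, with a median difference of 1.42 against -0.07. Cyp51 ranged from 153 to 299 (median 165) CPM in FAPs and from 17.8 to 99.7 (median 30.7) CPM in EC, a difference of 2.24 ± 0.43 (adjusted p = 2.94e-04). Sqle ranged from 79.5 to 124 (median 104) CPM in FAPs and from 9.35 to 59.8 (median 15.8) CPM in EC, a difference of 2.20 ± 0.41 (adjusted p = 2.04e-04). In both genes the lowest FAP library was above the highest EC library. Inflammatory cells were below FAPs in 19 genes and above in none (58.5% of all genes called, 27.7% higher and 30.7% lower; median -1.14 against -0.02), with Scd1 at -6.22 ± 0.44, Fads2 at -4.04 ± 0.55 and Elovl6 at -3.76 ± 0.40.

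FAPs of CCR2KO mice held more of the cholesterol synthesis transcripts than wild-type FAPs from day 3 to day 6. Averaged over days 3 to 6 (6 knockout and 13 wild-type libraries; a comparison added after the data had been seen), 16 of the 30 genes were higher in the knockout and none lower, where 15.2% of all genes were called, 6.34% higher and 8.9% lower. The median difference was 1.19 against -0.11 for all genes. In 13 genes every knockout library lay above every wild-type library (0.396% of all genes). Over days 0 to 2, edgeR called none of the 30 (0.0065% of all genes); none had an unadjusted p under 0.05 and DESeq2 called none. The difference between these 2 genotype effects, tested itself, was called in 13 genes, all larger at days 3 to 6 (3.58% of all genes called, 1.35% higher). That count was 8 without the knockout library of day 4 and 7 without that of day 6. It was 8 without the libraries whose descriptions name another day.

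Hmgcs1 ranged from 13.7 to 93.1 CPM (median 46.8) in the 13 wild-type FAP libraries of days 3 to 6 and from 159 to 523 CPM (median 401) in the 6 knockout libraries, a difference of 3.27 ± 0.44 (adjusted p = 7.00e-06). Sqle ranged from 4.49 to 29.8 CPM (median 11.5) in the wild type and from 61.1 to 162 CPM (median 92.4) in the knockout, a difference of 3.13 ± 0.33 (adjusted p = 7.85e-08). Idi1 ranged from 0 to 2.59 CPM (median 1.03) in the wild type and from 7.81 to 28.2 CPM (median 18.2) in the knockout, a difference of 4.51 ± 0.70 (adjusted p = 4.93e-05). None of the 3 genes overlapped between genotypes. Among the sterol genes Msmo1 (3.10 ± 0.32), Cyp51 (2.84 ± 0.30), Hsd17b7 (2.67 ± 0.30), Lss (2.08 ± 0.31), Sc5d (1.60 ± 0.28) and Nsdhl (1.5 ± 0.29) were higher, and among the mevalonate genes Fdps (2.63 ± 0.37), Fdft1 (2.02 ± 0.31) and Acat2 (1.41 ± 0.29).

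The control genes Insig1 and Stard4 were higher too. Insig1 ranged from 14.7 to 36.6 CPM (median 23.7) in the wild type and from 74.9 to 177 CPM (median 144) in the knockout (2.62 ± 0.25). Stard4 ranged from 1.23 to 11.3 CPM (median 5.87) and from 15.2 to 53.9 CPM (median 38.3) (2.84 ± 0.39). Both were apart between genotypes. Of the fatty acid genes 2 of 8 were higher, Elovl6 (2.12 ± 0.44) and Acly (0.85 ± 0.16). The others were not called: Fasn 0.82 ± 0.36, Scd2 0.33 ± 0.20, Scd1 -0.29 ± 0.21, with Fads1, Fads2 and Acaca. Nor were Srebf1 (-0.45 ± 0.28), Srebf2 (0.69 ± 0.33), Mvd (0.80 ± 0.41), Dhcr7 (0.40 ± 0.34), Mvk (0.02 ± 0.44) and Ebp (-0.05 ± 0.30), with Pmvk and Tm7sf2.

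Day by day, the summed level of the 18 mevalonate and sterol genes in knockout FAPs was 591 and 497 CPM undamaged, 1369, 1133 and 1925 at day 1, 2114 in the library of day 2 and 1534, 974 and 894 at day 3. The 6 wild-type libraries of day 3 held 279 to 504 CPM. Days 4, 5 and 6 have 1 knockout library each, at 1613, 1341 and 1061 CPM. By day 7 the 2 knockout libraries, at 322 and 239 CPM, were below the single wild-type library at 408. Ccr2 was detected in knockout library 1 of day 7 at 1.82 CPM (20 counts). The day 1 rise was present in the knockout: 15 genes rose and Scd1 fell (-1.07 ± 0.33; 30.5% of all genes called), with Acat2 at 3.31 ± 0.55, Mvd at 3.03 ± 0.74 and Fdps at 2.91 ± 0.63. Hmgcs1 was not among them (-0.08 ± 0.63), at 145 and 93.0 CPM undamaged and 29.4, 179.5 and 103 at day 1. Without knockout undamaged library 1 the count of 16 was 7. The day 1 response differed between genotypes in 0 genes by edgeR (0.0% of all genes; 2 at an unadjusted p under 0.05, 0 by DESeq2).

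From day 1 to day 3 the knockout FAPs showed Insig1 (1.14 ± 0.35) and Scd1 (1.03 ± 0.30) rising and Mvk (-1.79 ± 0.64), Acat2 (-1.39 ± 0.43) and Acly (-0.67 ± 0.24) falling. That share of members was no higher than the share of all genes called (23.2%). The count of 5 was 1 without day 1 library 1 or day 3 library 1, 3 without day 1 library 3 or day 3 library 2, and 11 without day 1 library 2. Across all days, 6 genes were higher in the knockout and none lower (2.14% of all genes called, 1.17% higher and 0.962% lower): Hmgcs1 (1.34 ± 0.33), Msmo1 (1.08 ± 0.29), Stard4 (1.05 ± 0.29), Lss (0.98 ± 0.20), Insig1 (0.97 ± 0.24) and Fdft1 (0.77 ± 0.22). Without 1 knockout library the count was 10 (day 1 library 1), 11 (day 1 library 2), 2 (day 3 library 1), 3 (day 3 library 2, day 3 library 3 or day 5), 1 (day 4 or day 6) and 10 (day 14), and DESeq2 called 13.

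**Figure D5:**
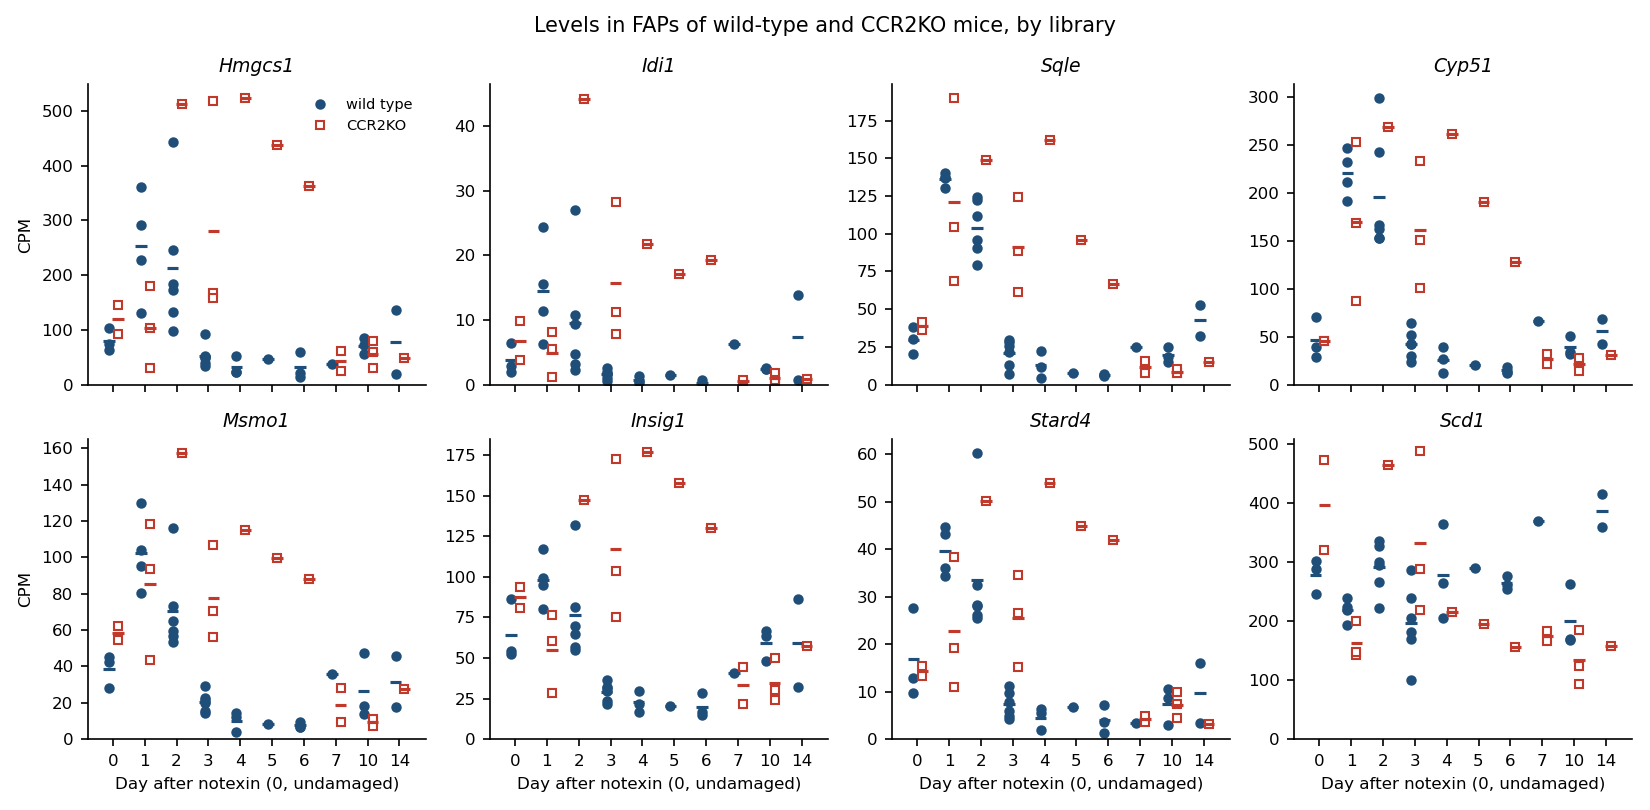
CPM of Hmgcs1, Idi1, Sqle, Cyp51, Msmo1, Insig1, Stard4 and Scd1 in each FAP library by day; filled circles are wild type, open squares CCR2KO and bars means. In 7 of the 8 genes the knockout libraries of days 3 to 6 stand above the wild-type ones, and Scd1 overlaps.

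Other genes moved with genotype in the same FAP libraries of days 3 to 6. Of 11 export and LXR genes, 6 were lower in the knockout and none higher (median -0.93), among them Apoe (-3.42 ± 0.56), Nr1h3 (-2.37 ± 0.42) and Abcg1 (-2.28 ± 0.29). Of 16 other synthesis genes, 6 were higher and 1 lower, with the NADPH source Me1 at 1.33 ± 0.21 and the acyl-CoA synthetase gene Acsl3 at 1.33 ± 0.40. None of the 6 SREBP processing genes and none of the 8 tested fatty acid oxidation genes was called by edgeR. Leukocyte markers were lower in 5 of 6 genes (median -3.54). Their summed level was 131 to 678 CPM in the wild type and 11.9 to 17.0 in the knockout at day 3, and 217 to 601 and 14.1 at day 4. Proliferation markers were higher in 5 of 6 genes. At day 3 their sums overlapped, at 202 to 236 CPM in the knockout and 150.2 to 549 in the wild type. At days 4, 5 and 6 the knockout libraries held 839, 617 and 653 CPM, against 116 to 323, 148 and 26.3 to 60.8 in the wild type. The part of leukocyte content and of proliferation in the sterol gene difference was not tested, at day 3 or at later days.

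In MP and EC the same genotype comparisons gave no called gene. Over days 3 to 6 edgeR called 0 of 30 in MP (0.0385% of all genes), while 17 had an unadjusted p under 0.05 and DESeq2 called 8. The share of all genes is given for the edgeR call alone, so the 17 and 8 cannot be read against it. The median difference was 0.89 against 0.09. The 18 summed genes ran from 594 to 2253 CPM in 5 knockout libraries and from 287 to 621 in 6 wild-type libraries, and 7 genes were apart, Hmgcs1, Idi1, Insig1, Lss, Sc5d, Sqle and Stard4 (0.654% of all genes). The library labelled undamaged CCR2KO of MP, the only one of its group, also stood high, at 1946 CPM, with Hmgcs1 at 647 CPM against 130.3, 134 and 33.4 in the wild type. Ccr2 was detected in this library at 2.68 CPM (17 counts). In EC, edgeR called 0 of 30 over days 3 to 6 (0.00631% of all genes), 10 had an unadjusted p under 0.05, and DESeq2 called 1. There, Acaca and Lss were apart between genotypes (0.504% of all genes). Within knockout EC, Sqle, Mvd and Hsd17b7 rose at day 1 (2.91% of all genes called, 1.76% higher and 1.15% lower), and none of the 3 calls remained when any 1 knockout library of days 0 or 1 was left out. The genotype effect across days was not called in any of the 30 genes by edgeR, either in EC (0.0797% of all genes called, 0.0532% higher and 0.0266% lower; 5 of the 30 at an unadjusted p under 0.05, 0 by DESeq2) or in MP (0.00683% of all genes, all higher; 16 and 5), and the FAP and EC effects differed in 0 genes by edgeR (0.00634% of all genes; 5 at an unadjusted p under 0.05, 0 by DESeq2). The larger number of called genes in FAPs is therefore not shown to be a difference between these populations.

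Some of the genes also varied together within groups, and others did not. After the mean of each population and day was removed, the mean of 16 of the 18 mevalonate and sterol genes (those with a mean of at least 10 CPM) was compared with each gene over 106 wild-type sorted libraries, which share depth and sorting. Of the 28 members at or above that level, Fdft1 (r = 0.76), Cyp51 (0.74) and Acat2 (0.67) had the highest correlations with the mean of the others, and Hmgcs1 (-0.02), Srebf1 (-0.04) and Insig1 (-0.09) had the lowest. Next above the lowest came Elovl6 (0.09), Acaca (0.17), Hsd17b7 (0.21) and Sc5d (0.23). Among 9894 other genes, those closest to the mean were Tmem97 (0.76), Haus7 (0.74), Sec11a (0.65), Asf1b (0.65), Clptm1l (0.65), Aldh9a1 (0.64), Rrm1 (0.63), Psat1 (0.63), Nt5dc2 (0.63) and Spc24 (0.63). These correlations are descriptions and carry no test.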

How the data were processed

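RNA was measured by stranded, poly(A)-selected mRNA sequencing with paired reads of 43 bases, per the labels' protocols. The submitters' processing notes name bcl2fastq, Bowtie, STAR and the build mm10, with no roles. The authors deposited 9 tables of raw counts per gene (178 libraries, 24421 genes), and 3.09 to 57.0% of counts per library (median 7.62%) lay in a row for reads in no gene, which stayed out of library sizes and tests. Libraries were grouped by the labels. CPM were computed from gene counts. Each comparison was fitted on all genes with edgeR 4.0.16 (R 4.3.3; TMM scaling, filterByExpr with a minimum count of 10, quasi-likelihood F test, Benjamini-Hochberg adjustment). The script was tested on simulated data. The 30 members and all lists were chosen with earlier results of these data known, so their counts stand beside those of all genes and no list was tested. All members could be named; of other genes, up to 3 called per list and comparison were named, those with the largest absolute change, provided the higher of the compared groups reached 10 CPM; 1 gene that the rule named is not reported here, while list counts include all members.

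The alternatives tried were RLE scaling, no filter, DESeq2 1.42.0, leaving out each library, leaving out libraries nearest to another population or described with another day, a term for the code R52 that 81 library descriptions carry, and the replicate number as a block. Day 2 libraries were taken as paired by number, because same-numbered libraries of different populations carry the same code stem in their descriptions and deviated together (r = 0.196 to 0.804 over 6 pairs for each of the population pairs), although the own number gave the highest r in only 5 of 6 (FAPs and EC), 3 of 6 (inflammatory cells and FAPs) and 1 of 6 (inflammatory cells and EC). Day 2 values come from the fit without the block. Elsewhere numbers did not pair libraries. Sequences came from RefSeq tables of GRCm38.p6. Gene counts per library ran from 1236809 to 37740952, and the shallowest libraries are the least precise.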

Additional observations from a re-analysis of the deposited data

Results flagged for a closer look

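In 37 of 270 pairs of a gene and a group of at least 4 libraries (13.7%), the highest or lowest library stood apart from the rest of its group by Dixon's 95% criterion. Chance gives about 1 in 20, and genes of one library are not independent. EC day 0 library 2 stood high in 4 genes, with Lss at 11.2 CPM, Srebf2 at 145 CPM, Scd1 at 100.5 CPM and Fasn at 91.5 CPM, where the other libraries held 3.31 to 3.43 CPM of Lss. EC day 0 library 4 stood low in 1 gene, with Insig1 at 39.5 CPM, where the other libraries held 52.1 to 53.1 CPM of Insig1. EC day 2 library 6 stood high in 7 genes, with Sqle at 59.8 CPM, Lss at 23.2 CPM, Sc5d at 29.0 CPM, Msmo1 at 45.0 CPM, Scd1 at 141 CPM, Scd2 at 522 CPM and Fasn at 298 CPM, where the other libraries held 9.35 to 24.0 CPM of Sqle. EC day 3 library 5 stood high in 6 genes, with Sqle at 22.5 CPM, Cyp51 at 43.4 CPM, Sc5d at 22.2 CPM, Scd1 at 129.8 CPM, Fasn at 90.8 CPM and Elovl6 at 23.9 CPM, where the other libraries held 2.17 to 7.18 CPM of Sqle. EC day 3 library 2 stood low in 1 gene, with Dhcr7 at 10.2 CPM, where the other libraries held 20 to 24.0 CPM of Dhcr7. EC day 3 library 4 stood high in 1 gene, with Acat2 at 23.6 CPM, where the other libraries held 9.15 to 12.9 CPM of Acat2. FAP day 1 library 4 stood high in 2 genes, with Mvk at 144 CPM and Fads2 at 110.2 CPM, where the other libraries held 62.6 to 70.0 CPM of Mvk. FAP day 2 library 1 stood high in 6 genes, with Idi1 at 27.1 CPM, Sc5d at 83.4 CPM, Msmo1 at 116 CPM, Insig1 at 132 CPM, Elovl6 at 107 CPM and Stard4 at 60.2 CPM, where the other libraries held 2.32 to 10.8 CPM of Idi1. FAP day 2 library 4 stood high in 1 gene, with Fdft1 at 135 CPM, where the other libraries held 56.4 to 82.6 CPM of Fdft1. FAP day 3 library 5 stood high in 1 gene, with Hmgcs1 at 93.1 CPM, where the other libraries held 33.6 to 51.8 CPM of Hmgcs1. Inflammatory-cell day 1 library 1 stood high in 1 gene, with Idi1 at 15.3 CPM, where the other libraries held 3.85 to 4.24 CPM of Idi1. Inflammatory-cell day 1 library 1 stood low in 1 gene, with Srebf1 at 49.1 CPM, where the other libraries held 102 to 113 CPM of Srebf1. Inflammatory-cell day 2 library 5 stood high in 3 genes, with Cyp51 at 151 CPM, Hsd17b7 at 19.8 CPM and Acat2 at 14.0 CPM, where the other libraries held 40.7 to 81.6 CPM of Cyp51. Inflammatory-cell day 2 library 4 stood high in 2 genes, with Scd2 at 127 CPM and Fads1 at 131 CPM, where the other libraries held 68.6 to 90.3 CPM of Scd2. EC day 3 library 5 is one of the libraries whose profile lay nearest to FAPs, and its FAP markers gave the highest sum of its group, in a range of 324 to 63392 CPM. Whether this has a part in its sterol gene levels was not tested.

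The size of a change differed between groups in 17 of 360 gene and contrast pairs, by the test of the difference itself. The day 1 response of inflammatory cells was below that of FAPs on the log2 scale in Lss (-2.20), Acat2 (-2.50) and Scd1 (-5.61), and at day 3 in Scd1 (-6.26). The CCR2KO minus wild-type difference in FAPs was larger at days 3 to 6 than at days 0 to 2 in Hmgcs1 (3.06), Sqle (2.85), Lss (1.63), Cyp51 (2.78), Idi1 (3.99), Fdps (2.00), Fdft1 (1.70), Sc5d (1.43), Msmo1 (2.58), Nsdhl (1.39), Hsd17b7 (2.48), Insig1 (2.40) and Stard4 (2.95). The genotype values rest on 1 knockout library at each of days 2, 4, 5 and 6, and leukocyte and proliferation markers differed between genotypes in the same libraries.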

How the results depend on the processing

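No result changed direction under any alternative run, apart from the signs on the CPM scale given for total muscle. Counts of called members that moved by over 1.5 times are given here as the reported count and then the alternative's; the cause was not tested. With DESeq2, FAP knockout against wild type across days went from 6 to 13, MP knockout against wild type across days from 0 to 5, EC knockout day 1 against day 0 from 3 to 6, EC knockout against wild type days 3 to 6 from 0 to 1, MP knockout day 1 against day 0 from 0 to 2, MP knockout against wild type days 3 to 6 from 0 to 8, MP knockout day 3 against day 1 from 0 to 1, day 3 response of MP against FAP from 0 to 2, day 1 response of MP against FAP from 0 to 1, EC day 3 against day 0 from 3 to 5, EC late days against day 3 from 0 to 2, MP day 3 against day 1 from 0 to 7, MP late days against day 3 from 1 to 3, Pericyte day 3 against day 1 from 0 to 1 and Pericyte late days against day 3 from 0 to 1. With a term for the R52 code, EC knockout day 1 against day 0 went from 3 to 1, FAP knockout day 3 against day 1 from 5 to 3, MP knockout against wild type days 3 to 6 from 0 to 2, inflammatory cells late days against day 3 from 1 to 2, MP day 3 against day 0 from 11 to 2 and MP day 3 against day 1 from 0 to 1. With RLE scaling, day 3 response of MP against FAP went from 0 to 1 and EC late days against day 3 from 0 to 1. With no filter on low counts, EC knockout day 1 against day 0 went from 3 to 0, MP knockout against wild type days 3 to 6 from 0 to 6, EC late days against day 3 from 0 to 1, MP day 3 against day 1 from 0 to 3 and MP late days against day 3 from 1 to 2. With the replicate block, FAP knockout against wild type across days went from 6 to 0, FAP genotype difference days 3 to 6 against days 0 to 2 from 13 to 4, MP knockout against wild type days 3 to 6 from 0 to 1, MP day 1 against day 0 from 6 to 2, MP day 3 against day 1 from 0 to 1 and MP late days against day 3 from 1 to 0. Without the libraries nearest to another population, MP knockout against wild type days 3 to 6 went from 0 to 1, day 3 response of MP against FAP from 0 to 1, EC day 1 against day 0 from 10 to 4, EC day 3 against day 0 from 3 to 6, EC late days against day 3 from 0 to 1, MP day 1 against day 0 from 6 to 12 and MP late days against day 3 from 1 to 3. Without the libraries described with another day, FAP genotype difference days 3 to 6 against days 0 to 2 went from 13 to 8, FAP knockout day 3 against day 1 from 5 to 3 and inflammatory cells day 1 against day 0 from 7 to 4. TMM moved log2 changes against plain CPM by over 0.1 also in inflammatory cells day 1 against day 0 (0.43), inflammatory cells day 3 against day 0 (0.36), MP day 3 against day 0 (0.23), MP day 3 against day 1 (0.30), EC day 3 against day 0 (0.19), EC day 3 against day 1 (0.14), Pericyte day 1 against day 0 (-0.23), Pericyte day 3 against day 0 (-0.20) and FAP day 3 against day 1 (0.15), with no called gene changing sign. With TMM scaling, the summed level of the 18 mevalonate and sterol genes was 993 rather than 835 in inflammatory cells day 1, 978 rather than 1244 in MP day 1, 1332 rather than 1690.2 in Pericyte day 1 and 279.5 rather than 188 in total muscle day 0 (CPM). For the paired day 2 libraries the replicate block gave 28 for FAPs against EC and 22 for inflammatory cells against FAPs. Elsewhere same-numbered libraries did not consistently deviate together (median r from -0.0637 to 0.183), and the fits with the block left out libraries without a number. Why calls were lost under the block was not tested. The 16 genes of FAP knockout days 3 to 6 were 11 with it. Of days 3 to 6 only the day 3 knockout libraries of FAPs and MP carry numbers, so the block used day 3 alone there; EC knockout libraries of days 3 to 6 and MP ones of days 0 and 1 carry none, and the block was not run for those days. Leaving out 1 library at a time gave ranges of 1 to 11 (FAP knockout against wild type across days), 0 to 3 (EC knockout day 1 against day 0), 7 to 19 (FAP knockout day 1 against day 0), 7 to 14 (FAP genotype difference days 3 to 6 against days 0 to 2), 1 to 11 (FAP knockout day 3 against day 1), 2 to 13 (EC day 1 against day 0), 1 to 6 (EC day 3 against day 0), 0 to 2 (EC late days against day 3), 11 to 19 (FAP day 1 against day 0), 1 to 6 (FAP day 3 against day 0), 2 to 8 (inflammatory cells day 1 against day 0), 2 to 7 (inflammatory cells day 3 against day 0), 1 to 7 (MP day 1 against day 0), 3 to 10 (MP day 3 against day 0), 0 to 1 (MP late days against day 3), 0 to 10 (Pericyte day 3 against day 0), 0 to 15 (Pericyte day 3 against day 1) and 0 to 13 (Pericyte late days against day 3). Groups of 1 or 2 libraries limit knockout FAPs on days 0, 2 and 4 to 6, most days of MP and pericytes, total muscle and undamaged inflammatory cells, where a lone library is assumed to vary like the others.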

Other observations

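Lipid uptake and storage genes, a list beside the synthesis genes, changed in FAPs at day 1 in 5 of 7 genes, where 26.6% of all genes were called. Cd36, a fatty acid uptake receptor, fell by 3.43 ± 0.75 and Lpl, the lipoprotein lipase, by 3.37 ± 0.46, and both rose again from day 1 to day 3, by 3.30 ± 0.69 and 2.54 ± 0.41. Vldlr, a lipoprotein receptor, fell by 2.42 ± 0.49 at day 1 and was lower in knockout than in wild-type FAPs at days 3 to 6 (-2.04 ± 0.41). In inflammatory cells at day 3, Plin2, the coat protein of lipid droplets, was above the undamaged level by 4.04 ± 0.51, beside the fall of 7 synthesis genes and the rise of 7 export and LXR genes. Of the other synthesis genes, Acsl3 (-1.50 ± 0.49) fell in the same comparison and Tmem97 (1.63 ± 0.51) rose. Neutrophil markers fell in 3 of 5 genes and leukocyte markers rose in 2 of 6 there, and their part was not tested.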
